A study of Homo sapiens with 12 samples.

Results

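The 10 genes described here encode chaperones, the proteins that help others fold: HSPA8, HSPA5, HSPA4, HSPH1, DNAJB1, HSP90AA1, HSP90AB1, HSPD1, HSPE1 and HSPB1. They were chosen by name from 15842 protein-coding genes that had a RefSeq span and a strand, and each was measured over its hg38 span on its own strand. All 10 had enough counts to be tested in every comparison. The cells were K562, an established line from chronic myeloid leukaemia, grown at 37°C, and the labels describe no heat shock or other stress. All 4 kinds of RNA library came from cells given 500 µM 4-thiouridine (4sU), a uridine analogue taken up into new RNA, for 5 min. In TT-Seq the RNA was sheared by sonication and the labelled fragments were then purified. In 4sU-Seq labelled RNA was purified without shearing, Total RNA-Frag-Seq was sheared without purification, and Total RNA-Seq had neither step. ChIP was made from cells crosslinked for 7.5 min, with antibody 3E10 against RNA polymerase II phosphorylated on serine 2 (S2P ChIP) or with antibody N-20 against the polymerase (N20 ChIP). Each of the 6 groups had 2 libraries.

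Chaperones of the HSP70 family bind exposed stretches of unfolded protein in a cycle driven by ATP, J domain proteins such as DNAJB1 start that cycle, and HSP110 proteins such as HSPA4 and HSPH1 release the nucleotide. HSP90 acts on later folding stages of kinases and receptors, HSPD1 and HSPE1 form the folding chamber of mitochondria, and HSPB1 is a small heat shock protein that holds unfolded proteins in solution. Under stress, heat shock factor 1 binds repeats of the letters GAA and TTC before many of these genes, but several of them are also highly transcribed in unstressed, growing cells.

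The 12 libraries held 68913035 and 71317148 counts in TT-Seq, 25909021 to 54295993 in the other RNA groups, and 12598494 to 73660126 in ChIP. Intervals and tests on such counts cover counting error and the spread between these libraries. The RNA libraries are called biological duplicates in the design text; for ChIP no source says where the replicates came from, so its p-values measure only the spread between those libraries, which may be technical. S2P replicate 1 had 4.62% of its counts at gene starts, against 7.45% in S2P replicate 2 and 8.05% and 8.51% in N20 ChIP. Of 8 listed marker genes of K562 cells 3 were in the table, with a summed level of 196 to 270 CPM (counts scaled to a fixed library total), and of 11 markers of other lineages 2 were, with 1.61 to 7.88 CPM.

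The genes differ in layout. HSPB1 spans 1.62 kb (chr7:76302673-76304292, + strand), HSPE1 3.07 kb, HSPA8 4.97 kb (chr11:123057489-123062462, - strand), HSPA5 6.49 kb and HSP90AB1 7.69 kb. HSPD1 spans 13.7 kb, HSPH1 27.4 kb and HSPA4 54.4 kb (chr5:133052013-133106449, + strand). The RefSeq spans of HSP90AA1 (59.0 kb, chr14:102080742-102139749, - strand) and DNAJB1 (45.6 kb, chr19:14514769-14560391, - strand) reach far upstream starts. Of the start sites RefSeq lists for each gene, the one across which TT-Seq density rose most lay 52705 bp downstream of the span's 5′ end in HSP90AA1 and 41994 bp downstream in DNAJB1. It left 6.3 kb and 3.63 kb of gene, and it is called the active start below. It was chosen after the data were seen. The active start was the span's own 5′ end in 5 genes and lay 326 bp downstream in HSPA8, 434 bp in HSPD1 and 907 bp in HSP90AB1. For HSPA8, HSPA5, HSPA4, HSPB1, HSPE1 and HSPH1 RefSeq lists no other start, so TT-Seq made no choice there. HSPD1 and HSPE1 run apart from neighbouring starts on chromosome 2 (197500274 and 197500379), so a strandless ChIP window around one holds the other.

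The sequences just before the starts are shown because the binding motif of heat shock factor is what links several of these genes. Each run is the 250 bases before a start, 5′ to 3′ on the gene's strand, from the RefSeq promoter table of GRCh38.p14. Capitals mark a match to a heat shock element, GAANNTTC or TTCNNGAA (either reads the same on both strands, and neighbouring matches overlap), except in HSPA5. There they mark the ER stress element, the letters CCAAT, any 9 bases and CCACG, which was searched on both strands and contains a CCAAT box. The regions are chr11:123062137-123062386 for HSPA8, chr14:102087045-102087294 for HSP90AA1, chr19:14518398-14518647 for DNAJB1 and chr2:197499841-197500090 for HSPD1 (all - strand, active starts). They are chr7:76302423-76302672 for HSPB1 (+ strand, active start), chr6:44247693-44247942 for another listed start of HSP90AB1 (+ strand) and chr9:125241344-125241593 for HSPA5 (- strand, active start).
HSPA8: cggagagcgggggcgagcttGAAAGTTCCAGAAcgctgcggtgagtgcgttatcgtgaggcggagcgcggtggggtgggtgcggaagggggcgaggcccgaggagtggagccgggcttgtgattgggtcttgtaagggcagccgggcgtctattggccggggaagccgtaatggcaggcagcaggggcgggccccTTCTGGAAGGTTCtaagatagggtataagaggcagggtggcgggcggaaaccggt
HSP90AA1: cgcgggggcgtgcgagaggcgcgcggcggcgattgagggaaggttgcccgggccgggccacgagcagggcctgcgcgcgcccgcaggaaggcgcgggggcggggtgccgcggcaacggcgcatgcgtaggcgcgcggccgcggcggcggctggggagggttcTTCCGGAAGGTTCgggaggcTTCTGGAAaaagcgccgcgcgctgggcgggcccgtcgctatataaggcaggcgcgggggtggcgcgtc
DNAJB1: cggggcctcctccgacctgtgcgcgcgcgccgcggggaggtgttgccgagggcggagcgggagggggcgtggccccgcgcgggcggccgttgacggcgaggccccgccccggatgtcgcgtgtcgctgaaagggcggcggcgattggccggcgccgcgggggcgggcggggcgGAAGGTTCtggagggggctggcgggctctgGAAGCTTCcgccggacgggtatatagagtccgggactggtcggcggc
HSPD1: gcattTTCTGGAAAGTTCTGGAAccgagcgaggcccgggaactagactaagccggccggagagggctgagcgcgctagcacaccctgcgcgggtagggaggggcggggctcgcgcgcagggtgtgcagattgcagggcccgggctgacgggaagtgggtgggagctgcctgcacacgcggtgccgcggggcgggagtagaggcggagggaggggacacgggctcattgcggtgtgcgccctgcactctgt
HSPB1: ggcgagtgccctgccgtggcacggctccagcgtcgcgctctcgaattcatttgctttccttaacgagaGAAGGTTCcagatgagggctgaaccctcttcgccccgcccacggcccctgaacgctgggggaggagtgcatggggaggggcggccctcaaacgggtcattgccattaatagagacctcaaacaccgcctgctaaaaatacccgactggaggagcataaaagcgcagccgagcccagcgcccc
HSP90AB1: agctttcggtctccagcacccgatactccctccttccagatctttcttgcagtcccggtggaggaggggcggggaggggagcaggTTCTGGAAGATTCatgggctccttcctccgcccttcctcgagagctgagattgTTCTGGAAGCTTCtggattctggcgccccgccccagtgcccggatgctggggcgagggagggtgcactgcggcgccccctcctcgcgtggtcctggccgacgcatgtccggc
HSPA5: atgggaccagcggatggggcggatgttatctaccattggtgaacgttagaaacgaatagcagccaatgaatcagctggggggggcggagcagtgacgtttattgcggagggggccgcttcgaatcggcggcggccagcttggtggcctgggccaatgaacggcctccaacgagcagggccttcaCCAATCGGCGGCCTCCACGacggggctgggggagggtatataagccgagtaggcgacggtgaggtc

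A heat shock element stood in the 250 bases before 6 of the 16 listed starts of these genes and before 11.6% of all 35116 promoters of that length. The active starts with one by these letters were those of HSPA8, HSP90AA1, DNAJB1, HSPD1 and HSPB1. In HSPA8 the matches formed a proximal pair that began 55 and 50 bases before the start and a distal pair at 230 and 225 bases, and in HSP90AA1 they began 88, 83 and 68 bases before it. HSP90AB1 had none before its active start (44247101) and 4 before the start at 44247943, which lies downstream of it. HSPA4, HSPH1, HSPE1 and HSPA5 had no match in this window. The ER stress element, the site through which the unfolded protein response acts, was found 66 bases before HSPA5 and in 0.074% of all promoters. Boxes of the letters CCAAT (32% of promoters, both strands) stood before 6 of the 16 starts, and TATAA (18.9%, both strands) before 5. A match is a description of these letters and not of binding.

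Most of these genes were among the most abundant of all. Levels are given here as CPM per kb of gene from the active start, exons and introns together. In TT-Seq, HSP90AB1 ranked 33rd of 12061 tested genes, HSPA5 44th, HSPB1 53rd, HSPA8 82nd and HSP90AA1 97th. In Total RNA-Frag-Seq the same genes held ranks 22, 78, 42, 43 and 72. HSPE1 ranked 327th in TT-Seq and 323rd in Total RNA-Frag-Seq, and HSPD1 409th and 329th. DNAJB1 ranked 1027th and 465th. The HSP110 genes stood lower: HSPA4 at 1590 in TT-Seq and 2966 in Total RNA-Frag-Seq, and HSPH1 at 5536 and 5355. The neighbours HSPE1 and HSPD1 in the TT-Seq order, at 11.5 ± 1.98 and 9.7 ± 0.651 CPM per kb (SD, n = 2 each), did not differ beyond their spread.

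**Figure D1:**
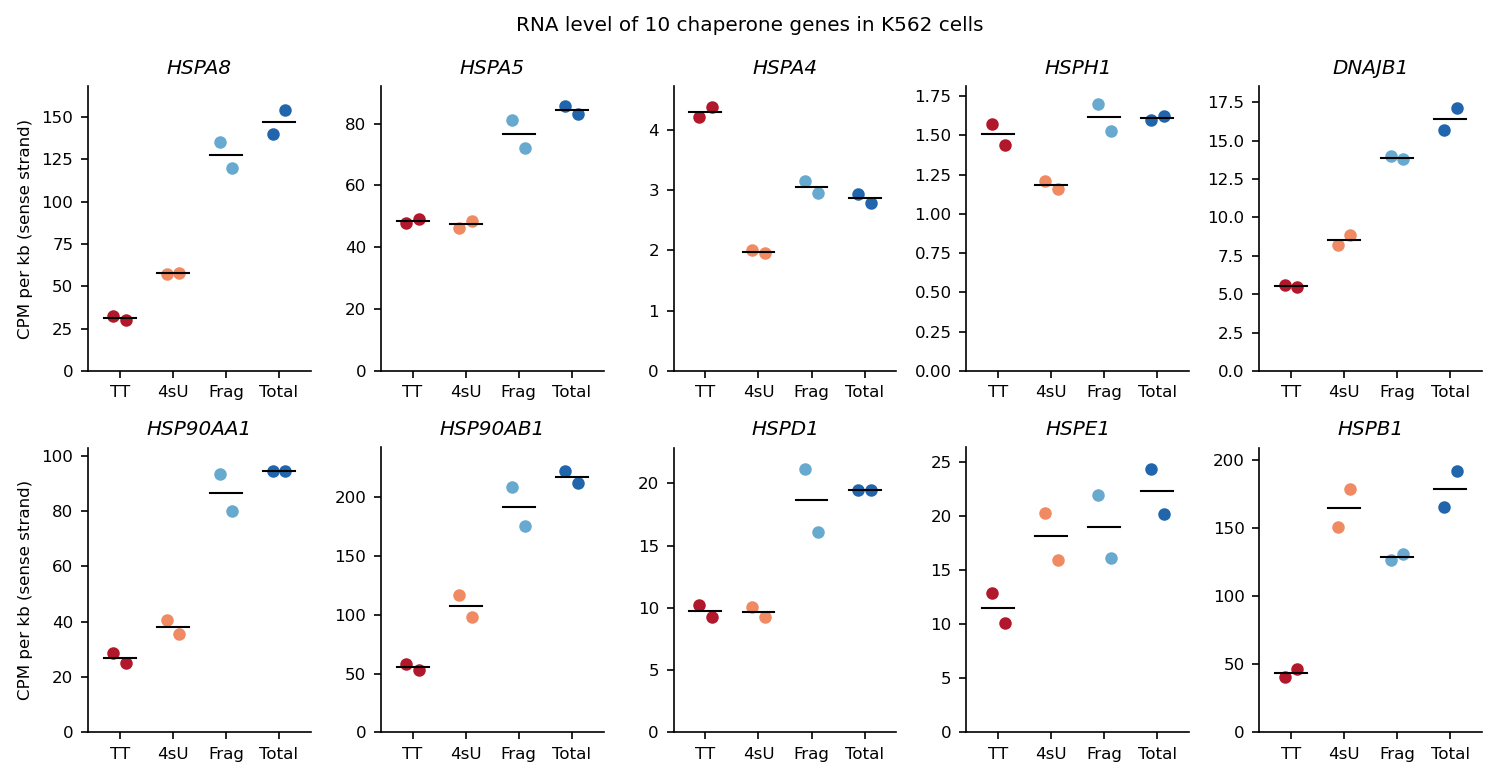
RNA level of the 10 chaperone genes in CPM per kb from the active start (vertical axes from 0, scaled per gene), with 1 point per library and a line at the mean of each group of 2 (TT, TT-Seq; 4sU, 4sU-Seq; Frag, Total RNA-Frag-Seq; Total, Total RNA-Seq). TT-Seq is lowest in 6 panels (HSPA8, DNAJB1, HSP90AA1, HSP90AB1, HSPE1, HSPB1) and highest in HSPA4.

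The first comparison asked how the share of the chaperone genes in RNA made within 5 min compared with their share in all RNA, with both sheared. Of the 10 genes 8 were lower in TT-Seq relative to Total RNA-Frag-Seq, HSPA4 was higher and HSPH1 was not called (edgeR's quasi-likelihood test, adjusted p under 0.05 over all tested genes). Of all genes 67.4% were called in this comparison, 34.9% as lower and 32.5% as higher. The median log2 fold change was -1.0 over the 10 genes and -0.05 over all genes. In these bulk libraries, which report shares, fewer cells with an RNA and less of it per cell cannot be told apart.

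The cytosolic HSP70 gene HSPA8, which serves general folding in unstressed cells, was the lowest. It had 32.4 and 30 CPM per kb in TT-Seq, against 135 and 120 CPM per kb in Total RNA-Frag-Seq. Both TT-Seq libraries were far below both sheared total libraries. Its log2 fold change was -2.03 ± 0.07 (SE, adjusted p = 6.03e-10), a 4.09-fold lower share. The span of HSPA8 also contains SNORD14C, SNORD14D and SNORD14E, small nucleolar RNAs whose reads may count to it. HSPA5, the HSP70 of the endoplasmic reticulum, had 47.9 and 49.3 CPM per kb in TT-Seq, against 81.1 and 72.2 CPM per kb in Total RNA-Frag-Seq. The groups did not overlap (-0.66 ± 0.06, adjusted p = 6.9e-07).

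Both HSP90 genes were lower too. HSP90AB1, the constitutive form, had 58.4 and 53.1 CPM per kb in TT-Seq, against 208 and 175 CPM per kb in Total RNA-Frag-Seq (-1.78 ± 0.10, adjusted p = 3.67e-08). HSP90AA1, the stress-inducible form, had 28.6 and 25.1 CPM per kb in TT-Seq, against 93.3 and 80 CPM per kb in Total RNA-Frag-Seq (-1.63 ± 0.09 over its full span, adjusted p = 2.18e-08). Neither pair of groups overlapped. HSPB1 was lower as well, with 40.5 and 46.8 CPM per kb in TT-Seq, against 127 and 131 CPM per kb in Total RNA-Frag-Seq (-1.56 ± 0.10, adjusted p = 9.2e-08).

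DNAJB1, the J protein that delivers clients to HSP70, had 5.63 and 5.5 CPM per kb in TT-Seq, against 14 and 13.8 CPM per kb in Total RNA-Frag-Seq. Its 2 TT-Seq libraries were nearly equal, and the groups stood clear of each other. The log2 fold change was -1.05 ± 0.08 over the full span (adjusted p = 8.04e-08) and -1.32 ± 0.08 from the active start. The full span of DNAJB1 lies across TECR, a gene on the other strand. The mitochondrial pair was also lower. HSPE1 lies within the read-through gene HSPE1-MOB4 on the same strand, and the span of HSPD1 contains SNORA105B, a small nucleolar RNA. Reads of these may count to the pair. HSPD1 had 10.2 and 9.24 CPM per kb in TT-Seq, against 21.2 and 16.1 CPM per kb in Total RNA-Frag-Seq (-0.95 ± 0.11, adjusted p = 1.67e-05). HSPE1 had 12.9 and 10.1 CPM per kb in TT-Seq, against 22 and 16.1 CPM per kb in Total RNA-Frag-Seq (-0.73 ± 0.17, adjusted p = 0.00354). For both, TT-Seq was below the lower sheared total library, and without Total RNA-Frag-Seq replicate 1 HSPE1 was no longer called (-0.48, adjusted p = 0.0728).

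The HSP110 genes stood apart from the rest. HSPA4, the longest gene of the set from its active start, had 4.22 and 4.38 CPM per kb in TT-Seq, against 3.15 and 2.95 CPM per kb in Total RNA-Frag-Seq. Both TT-Seq values were above both others, and the log2 fold change was 0.49 ± 0.06 (adjusted p = 4.16e-06). Counted over the authors' transcriptional unit, HSPA4 was no longer called (0.0489, adjusted p = 0.434). The units were fitted and scaled as a separate set, so this value is not on the scale of the gene fit. What moved it was not tested. HSPH1 had 1.57 and 1.44 CPM per kb in TT-Seq, against 1.7 and 1.53 CPM per kb in Total RNA-Frag-Seq. The groups overlapped (-0.10 ± 0.08, adjusted p = 0.278), and over the authors' unit, in that separate fit, HSPH1 was called lower (-0.52).

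RefSeq lists processed copies for most of the set: 28 pseudogenes of HSPE1, 22 of HSPD1, 20 of HSPA8, 6 of HSP90AB1 and 5 of HSP90AA1, and none of HSPA4 or HSPH1. No source used here says whether a read that matches several places was counted, so the levels of genes with such copies are uncertain.

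The second comparison made the same contrast without shearing. Of the 10 genes 8 were lower in 4sU-Seq than in Total RNA-Seq and none was higher, while 57.4% of all genes were called, 30.1% as lower and 27.3% as higher. The median was -0.84 over the 10 genes and -0.02 over all genes. HSPA8 had 57.4 and 58 CPM per kb in 4sU-Seq, against 140 and 154 CPM per kb in Total RNA-Seq (-1.35 ± 0.07, adjusted p = 3.95e-08). HSP90AA1 had 40.5 and 35.4 CPM per kb in 4sU-Seq, against 94.6 and 94.5 CPM per kb in Total RNA-Seq (-1.28 ± 0.09 over its full span, adjusted p = 4.55e-07). In both the purified libraries were below the unpurified ones. HSPA5 had 46.3 and 48.6 CPM per kb in 4sU-Seq, against 85.8 and 83.1 CPM per kb in Total RNA-Seq, and was lower too (-0.83 ± 0.06). The groups of HSPA5 did not overlap. HSP90AB1 (-1.02 ± 0.10), HSPD1 (-1.01 ± 0.11) and DNAJB1 (-0.86 ± 0.08) followed.

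HSPA4 and HSPH1 were both lower without shearing. HSPA4 had 2 and 1.95 CPM per kb in 4sU-Seq, against 2.94 and 2.79 CPM per kb in Total RNA-Seq (-0.54 ± 0.06, adjusted p = 5.89e-06). HSPH1 had 1.21 and 1.16 CPM per kb in 4sU-Seq, against 1.6 and 1.62 CPM per kb in Total RNA-Seq (-0.44 ± 0.08, adjusted p = 0.000468). The groups stood clear of each other in both. HSPB1 had 151 and 179 CPM per kb in 4sU-Seq, against 166 and 192 CPM per kb in Total RNA-Seq, and these overlapped (-0.12 ± 0.09, adjusted p = 0.298). HSPE1 was not called either (-0.30 ± 0.17, adjusted p = 0.169), except with replicate number as a block in the fit.

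**Figure D2:**
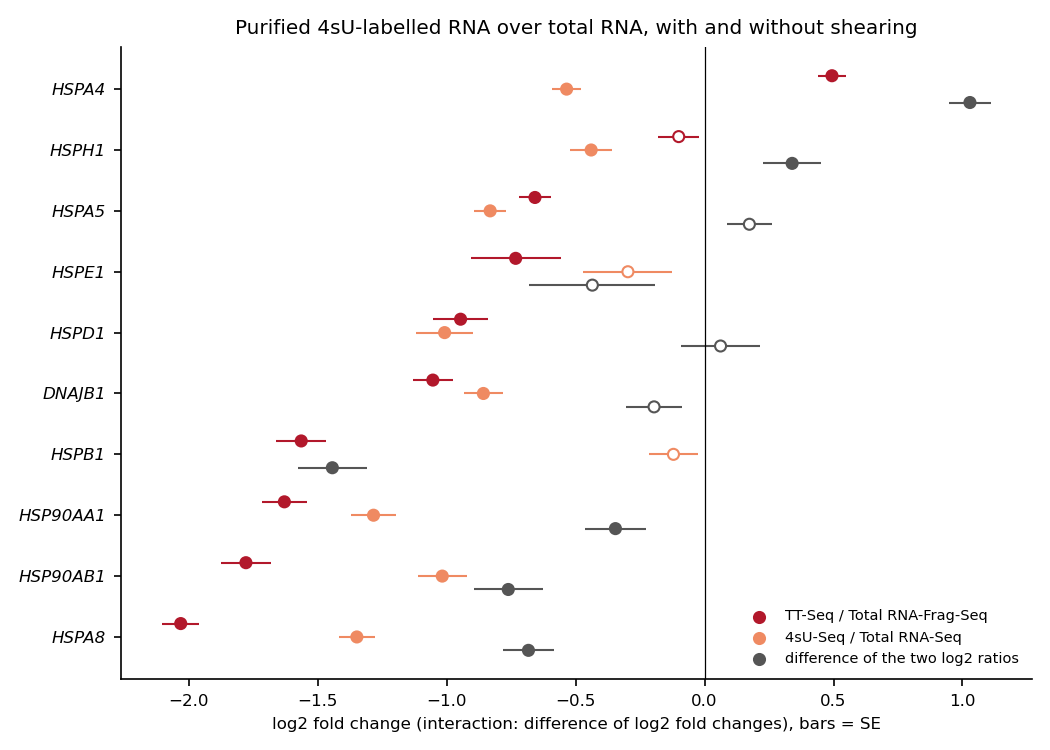
Log2 fold changes of the 10 genes (horizontal axis, bars are SE) in TT-Seq over Total RNA-Frag-Seq, in 4sU-Seq over Total RNA-Seq, and their difference. Filled points have an adjusted p under 0.05. HSPA4 is to the right of 0 with shearing and to the left of it without, and HSPB1 is the gene whose points lie farthest apart on the left.

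Whether the effect of purification differed with shearing was tested as an interaction, the log2 fold change of TT-Seq over Total RNA-Frag-Seq minus that of 4sU-Seq over Total RNA-Seq. It was called in 6 of the 10 genes, 4 lower and 2 higher, against 45.9% of all genes, 24.6% lower and 21.3% higher. HSPB1 was lower after shearing by a further -1.44 ± 0.14 (adjusted p = 2.23e-05), HSP90AB1 by -0.76 ± 0.13 (adjusted p = 0.000944), HSPA8 by -0.68 ± 0.10 (adjusted p = 0.000171) and HSP90AA1 by -0.35 ± 0.12 (adjusted p = 0.0343). HSPA4 went the other way by 1.03 ± 0.08 (adjusted p = 4.78e-06) and HSPH1 by 0.34 ± 0.11 (adjusted p = 0.0259). HSPA5, HSPD1, HSPE1 and DNAJB1 were not called, though HSPE1 was with the replicate block. The calls of HSP90AA1 and HSPH1 were close to the threshold and ended when single libraries were left out. That of HSP90AA1 ended without TT-Seq replicate 2 (-0.24, adjusted p = 0.202), 4sU-Seq replicate 1, Total RNA-Frag-Seq replicate 1 or either Total RNA-Seq library, and that of HSPH1 without TT-Seq replicate 1 (0.28, adjusted p = 0.14), 4sU-Seq replicate 2, Total RNA-Frag-Seq replicate 2 or either Total RNA-Seq library. DNAJB1 was not called over its full span (-0.20 ± 0.11, adjusted p = 0.155) but was when counted from the active start (-0.38 ± 0.11, adjusted p = 0.0126) or over the authors' transcriptional unit (-0.30). Over those units HSPH1 was not called (0.15, adjusted p = 0.348).

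Set directly against 4sU-Seq, TT-Seq was lower for 6 of the 10 genes and higher for 2, while 63.3% of all genes were called, 31.1% as lower and 32.2% as higher. The TT-Seq level of HSPB1 was 3.78-fold lower (-1.92 ± 0.10, adjusted p = 7.08e-08), and that of HSPA4 was 2.17-fold higher (1.12 ± 0.06, adjusted p = 2.57e-08). HSPH1 was higher as well (0.35 ± 0.08), and HSP90AB1 (-0.94 ± 0.10), HSPA8 (-0.89 ± 0.07), HSPE1 (-0.66 ± 0.17), HSP90AA1 (-0.47 ± 0.09) and DNAJB1 (-0.42 ± 0.08) were lower. HSPA5 (0.03 ± 0.06, adjusted p = 0.654) and HSPD1 (adjusted p = 0.993) were not called. The call of HSPE1 ended without TT-Seq replicate 2 (-0.47, adjusted p = 0.0825) or 4sU-Seq replicate 1 (-0.46, adjusted p = 0.126). Without TMM scaling the median of all genes moved to -0.21 and HSPH1 was no longer called (0.16, adjusted p = 0.0961), nor was it over the authors' units (0.15, adjusted p = 0.131).

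Sheared and unsheared total RNA were also compared. Total RNA-Frag-Seq was lower than Total RNA-Seq for 3 of the 10 genes, against 32.8% of all genes called, 12% lower and 20.9% higher. HSPB1 had 127 and 131 CPM per kb in Total RNA-Frag-Seq, against 166 and 192 CPM per kb in Total RNA-Seq (-0.47 ± 0.10, adjusted p = 0.00323). DNAJB1 (-0.23 ± 0.08, adjusted p = 0.0365) and HSPA8 (-0.20 ± 0.07, adjusted p = 0.0392) were close to the threshold. Leaving out Total RNA-Frag-Seq replicate 2 or Total RNA-Seq replicate 2 ended both of those calls and leaving out Total RNA-Frag-Seq replicate 1 that of DNAJB1, and 6 genes were lower with no TMM factors, where all genes had a median of -0.15.

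The same samples were then read beyond the annotated 3′ end, where transcripts not yet ended by the polymerase are known to run on. Sense RNA in the 5 kb after the 3′ end was expressed as a share of the density in the gene body, with 0.1 CPM per kb added to both. Such a share rises with more RNA in that window or with less in the body, and 8 of the 10 genes were lower in TT-Seq over their spans. In TT-Seq relative to Total RNA-Frag-Seq this share was higher in 9 of the 10 genes and lower in none, against 65.9% of all genes called, 58.4% higher and 7.55% lower. The median log2 difference was 1.78 over the 10 genes and 0.59 over all genes. In unsheared RNA, 8 genes were higher and 1 lower (47.5% of all called, 40.4% higher and 7.11% lower), and 7 were higher in TT-Seq than in 4sU-Seq (44.7% of all called, 39.5% higher and 5.26% lower).

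HSPA8 differed most. Read from the active start, RNA after its 3′ end stood at 6.03% and 5.54% of the body in TT-Seq and at 1.21% and 1.6% in 4sU-Seq. It stood at 0.288% and 0.253% in Total RNA-Frag-Seq and at 0.324% and 0.229% in Total RNA-Seq. The 4 kinds of library separated, except that the 2 unpurified kinds overlapped. Over the annotated span the log2 difference between TT-Seq and Total RNA-Frag-Seq was 4.38 ± 0.19 (SE, limma, adjusted p = 6.72e-07), between 4sU-Seq and Total RNA-Seq 2.34 ± 0.19 and between TT-Seq and 4sU-Seq 2.03 ± 0.19. The absolute density in that window was also higher, at 1.26 and 1.06 CPM per kb in TT-Seq, against 0.199 and 0.126 CPM per kb in Total RNA-Frag-Seq.

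HSP90AA1 stood at 4.52% and 4.79% of the body in TT-Seq, against 0.465% and 0.445% in Total RNA-Frag-Seq (3.24 ± 0.13 over the annotated span, adjusted p = 6.04e-07). DNAJB1 stood at 16% and 17% in TT-Seq, against 1.46% and 1.7% in Total RNA-Frag-Seq (2.89 ± 0.24 over the annotated span, adjusted p = 9.6e-06). HSPD1 stood at 20.6% and 21.5% in TT-Seq, against 2.11% and 3.29% in Total RNA-Frag-Seq (2.98 ± 0.21 over the annotated span, adjusted p = 4.58e-06). In all 3 genes both TT-Seq libraries were above both sheared total libraries. In HSPE1 the value was 12.9% and 16.8% in TT-Seq, against 2.26% and 4.18% in Total RNA-Frag-Seq (2.26 ± 0.28), but HSPE1-MOB4, a read-through gene on the same strand, covers its span and this window.

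The remaining genes followed. HSPH1 (23.8% and 31.2% in TT-Seq, against 11.1% and 11% in Total RNA-Frag-Seq) and HSPA4 (18.8% and 19.9%, against 9.58% and 11.5%) had the highest shares in total RNA. HSPA5 had the lowest share in TT-Seq, at 0.604% and 0.55%, against 0.219% and 0.268% in Total RNA-Frag-Seq, and at these densities the added 0.1 CPM per kb makes up most of the value: TT-Seq had 0.0871 and 0.0729 CPM per kb there, and the window overlaps RABEPK on the other strand. HSP90AB1 had 7.87% and 6.26% in TT-Seq, against 2.97% and 2.73% in Total RNA-Frag-Seq. Its mean level from the active start was 55.7 CPM per kb in TT-Seq and 191 in Total RNA-Frag-Seq, so this need not mean more RNA in the window. HSPB1 alone was not called, at 4.13% and 3.15% in TT-Seq, against 3.89% and 2.74% in Total RNA-Frag-Seq (0.15 ± 0.22, adjusted p = 0.597). In unsheared RNA HSPB1 was the 1 gene with a lower share, 1.87% and 1.99% in 4sU-Seq against 3.74% and 2.63% in Total RNA-Seq (-0.70 ± 0.22, adjusted p = 0.0267), a call that ended without either 4sU-Seq library or without Total RNA-Seq replicate 1.

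**Figure D3:**
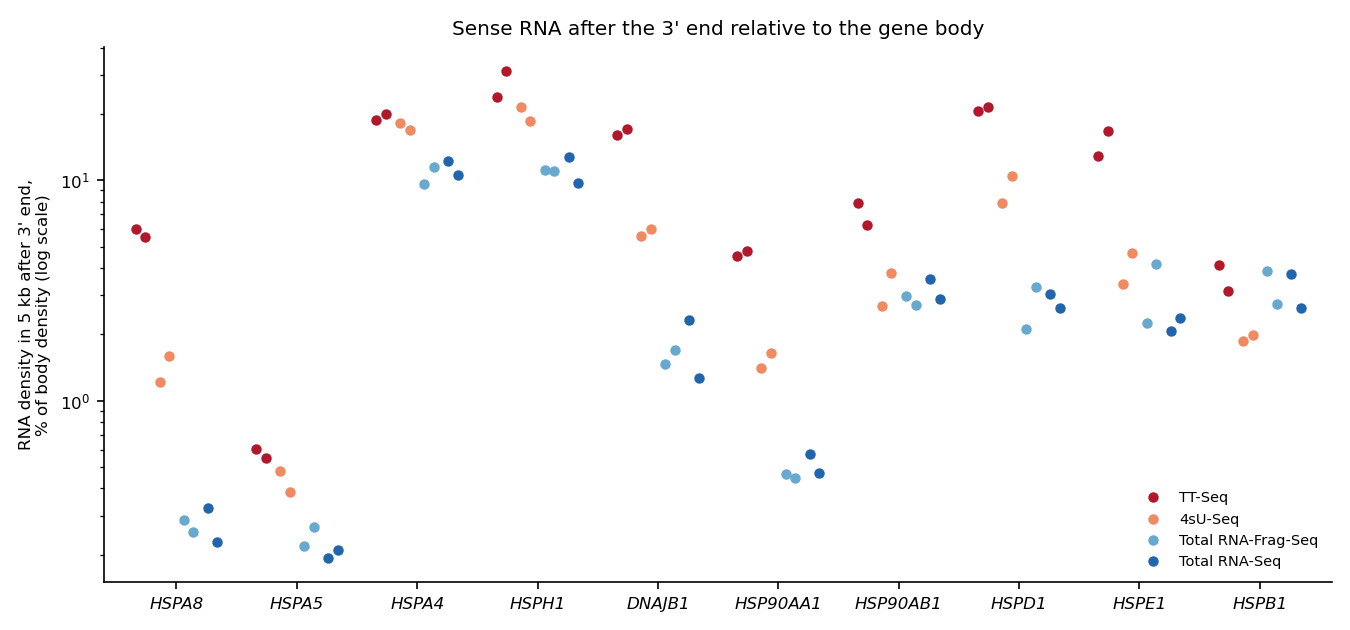
Sense RNA density in the 5 kb after the 3′ end as a percentage of the body density from the active start (vertical log axis, 0.1 CPM per kb added to both), with 1 point per library. TT-Seq lies above the unpurified libraries in every gene but HSPB1, and most clearly in HSPA8, where it is at 6.03% and 5.54% against 0.288% and 0.253% in Total RNA-Frag-Seq.

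The authors' transcriptional units, segmented from TT-Seq, also ended past the annotated 3′ ends of 9 of these genes, by 6.11 kb for HSPA8, 5.98 kb for HSP90AB1, 4.99 kb for DNAJB1, 3.06 kb for HSPH1, 2.35 kb for HSPD1, 2.24 kb for HSPA4, 1.72 kb for HSPA5 and 1.67 kb for HSPB1. The unit over HSPE1 covered several genes and ended 80.4 kb past it. The unit with the largest overlap with HSP90AA1 was the one at its far start and did not hold the active gene.

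Labelled RNA was also found on the opposite strand before several starts, where promoters are known to fire in both directions. In the 1 kb before HSPA5, opposite-strand density was 6.33 and 7.4 CPM per kb in TT-Seq and 6.21 and 5.9 CPM per kb in 4sU-Seq. It was 0.301 and 0.84 CPM per kb in Total RNA-Frag-Seq and 0.592 and 0.695 CPM per kb in Total RNA-Seq. Both purified kinds were thus above both unpurified kinds. RefSeq places the divergent transcript HSPA5-DT there. HSPA4 had 4.18 and 5.03 CPM per kb in TT-Seq, against 1.3 and 1.53 CPM per kb in Total RNA-Frag-Seq. HSPH1, which faces LOC105370148, had 1.07 and 0.953 CPM per kb in TT-Seq, against 0.255 and 0.15 CPM per kb in Total RNA-Frag-Seq. HSP90AA1 (0.856 and 0.982, against 0.209 and 0.21 CPM per kb) and DNAJB1 (1 and 0.785, against 0.209 and 0.03 CPM per kb) showed the same order at lower density. HSPA8, which faces LOC124902775, was highest in 4sU-Seq (8.82 and 13.3 CPM per kb), with 4.02 and 4.08 in TT-Seq and 3.69 and 2.22 in Total RNA-Frag-Seq. It had 4.18 and 3.9 CPM per kb in Total RNA-Seq, which overlapped TT-Seq. HSP90AB1 and HSPB1 had at most 0.224 CPM per kb in any library. The window of HSPD1 is the first part of HSPE1 and that of HSPE1 the first part of HSPD1, so neither can be read this way. These values were not tested.

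ChIP asked where the polymerase stood on these genes. ChIP density is given in CPM per kb of all bins in the library, without strand; spread evenly over the genome a library would have 0.324 CPM per kb. Around the annotated start (500 bp on each side), 4 of the 10 genes were lower in S2P ChIP than in N20 ChIP and 1 was higher by edgeR, against 36.2% of all genes called, 16.4% lower and 19.7% higher. Among the 4 were HSPD1 and HSPE1, whose start windows hold the same bins, so their calls rest on the same counts. S2P libraries had fewer counts in starts as a whole, and edgeR scaled this away within the starts: the median of all genes was 0.14 with TMM scaling and -0.64 without it, where 5 members were lower and none higher.

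HSPA5 had 4.24 and 8.06 CPM per kb at its start in S2P ChIP, against 25.1 and 16.4 CPM per kb in N20 ChIP (-1.04 ± 0.34, adjusted p = 0.00958). The shared start window of HSPD1 and HSPE1 had 3.37 and 7.6 CPM per kb in S2P ChIP, against 17.8 and 18.4 CPM per kb in N20 ChIP (-1.02 ± 0.33, adjusted p = 0.00924). In both windows S2P replicate 1 was the lowest library, and the groups did not overlap. HSPA4 had 4.29 and 7.08 CPM per kb in S2P ChIP, against 14.1 and 15.4 CPM per kb in N20 ChIP, HSPA8 had 2.53 and 4.12 against 8.73 and 9.25, and HSPB1 had 4.72 and 8.47 against 14.9 and 11.6. These 3 were not called once starts were scaled together (-0.63 ± 0.32, -0.68 ± 0.31 and -0.27 ± 0.32). HSPH1 had the lowest N20 density at its start, 2.7 and 2.23 CPM per kb, with 1.03 and 1.16 in S2P ChIP.

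ChIP density at the annotated far starts of HSP90AA1, next to WDR20, and DNAJB1, within TECR, was below that at the active starts. At the active start HSP90AA1 had 4.64 and 13.5 CPM per kb in S2P ChIP and 21 and 28.2 CPM per kb in N20 ChIP. At its far start it had 2.12 and 3.37 in S2P ChIP and 8.41 and 7.28 in N20 ChIP. DNAJB1 had 9.07 and 23.6 CPM per kb in S2P ChIP and 20.5 and 20.2 in N20 ChIP at the active start, and 2.5 and 3.66 in S2P ChIP and 3.33 and 2.4 in N20 ChIP at the far start. The calls at the annotated starts (HSP90AA1 lower, -0.76 ± 0.32, and DNAJB1 higher, 0.89 ± 0.35) were not made at the active starts, at -0.78 (adjusted p = 0.06) and 0.36 (adjusted p = 0.415), and neither was that of HSPD1 (-0.70, adjusted p = 0.0871), which also ended with a window of 1 kb into the gene (-0.65). Without S2P replicate 1 none of the 10 genes was called at the start, and without N20 replicate 1 only DNAJB1 was.

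In gene bodies 2 of the 10 genes were higher in S2P ChIP and 1 was lower, against 50.8% of all genes called, 27.2% higher and 23.6% lower. These bodies began 500 bp after the annotated 5′ end. Those of HSP90AA1, DNAJB1 and HSP90AB1 thus hold the active start, and those of HSPA8 and HSPD1 begin within 500 bp after it. The ratios to the body below use the same bodies unless read from the active start. HSPA5 had 1.04 and 2.54 CPM per kb in S2P ChIP, against 0.529 and 0.585 CPM per kb in N20 ChIP (1.72 ± 0.53, adjusted p = 0.0476). HSPA4 had 0.608 and 0.55 in S2P ChIP, against 0.449 and 0.471 in N20 ChIP (0.36 ± 0.14, adjusted p = 0.0484). HSPA8 had 0.537 and 0.668 in S2P ChIP, against 1.31 and 0.875 in N20 ChIP (-0.81 ± 0.30, adjusted p = 0.0446). The groups did not overlap in these genes, yet all 3 calls were close to the threshold: none held without N20 replicate 1, those of HSPA5 and HSPA4 ended without N20 replicate 2 and that of HSPA8 without S2P replicate 1. The body of HSPB1 was the densest, with 5.51 and 11.3 CPM per kb in S2P ChIP and 7.46 and 8.4 CPM per kb in N20 ChIP, which overlapped. It was called higher without S2P replicate 1 (0.56) and lower without S2P replicate 2 (-0.57). Those of HSPH1 (0.112 and 0.201 in S2P ChIP, 0.136 and 0.157 in N20 ChIP) and HSPE1 (0.125 and 0.0669 in S2P ChIP, 0.183 and 0.165 in N20 ChIP) were below the density of an even spread. Read from the active start, the bodies of HSP90AB1 (2.47 and 2.3 in S2P ChIP, 0.999 and 1.12 in N20 ChIP, 1.17 ± 0.19, adjusted p = 0.000331) and HSPD1 (0.73 ± 0.22, adjusted p = 0.0152) were higher in S2P ChIP, and the other 8 were not called. HSPA8 then had a mean of 0.281 CPM per kb in S2P ChIP and 0.499 in N20 ChIP (-0.82, adjusted p = 0.0734).

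The start-to-body ratio of density sets both windows of a library against each other. It was lower in S2P ChIP than in N20 ChIP in 4 of the 10 genes and higher in none, against 34.3% of all genes called, 31.6% lower and 2.68% higher (limma). HSPA5 had 382% and 309% of its body density at the start in S2P ChIP, against 4000% and 2410% in N20 ChIP (-3.18 ± 0.57, adjusted p = 4.88e-06). HSPD1 (-2.01 ± 0.60), HSPA4 (-1.68 ± 0.61) and HSPE1 (-1.32 ± 0.54) were lower too, though HSPD1 and HSPE1 share the same start counts here. The body of HSPE1 held only 6 to 24 counts per library, and its call ended with 0.05 CPM per kb added in place of 0.1 (adjusted p = 0.102) and without the filter on low values (adjusted p = 0.0566). With a start window of 1 kb into the gene only HSPA5 of these 4 was called. The median was -1.15 over the 10 genes and -0.72 over all genes. Without N20 replicate 1 none was called, and HSPA5 then had -2.81 (adjusted p = 0.0826). Without N20 replicate 2 only HSPA5 was called. From the active starts HSP90AB1 (-2.03 ± 0.59, adjusted p = 0.00413) and HSP90AA1 (-1.73 ± 0.55, adjusted p = 0.00894) were called as well.

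After the 3′ end 5 of the 10 genes were higher in S2P ChIP and none was lower, against 47.7% of all genes called, 26.9% higher and 20.8% lower. The median was 0.94 over the 10 genes and -0.09 over all genes. HSP90AB1 had 25.6 and 18.2 CPM per kb in S2P ChIP, against 4.67 and 6.46 CPM per kb in N20 ChIP (1.71 ± 0.33, adjusted p = 0.000123), but this window holds SLC35B2, on the other strand, and part of NFKBIE, which ChIP cannot separate from it. HSPA4 had 1.67 and 1.29 in S2P ChIP, against 0.476 and 0.463 in N20 ChIP (1.40 ± 0.28, adjusted p = 0.000191). HSPD1 had 2.41 and 1.49 in S2P ChIP, against 0.698 and 0.634 in N20 ChIP (1.29 ± 0.28, adjusted p = 0.000457). Both groups stood clear of each other in these genes. HSP90AA1 (3.45 and 1.47 in S2P ChIP, against 0.825 and 0.857 in N20 ChIP) and HSPB1 (3.25 and 4.28, against 1.87 and 1.61) were higher as well, though HSP90AA1 was not called without S2P replicate 1 (0.58, adjusted p = 0.0722), and neither HSPB1 nor HSP90AB1 was without N20 replicate 1. HSPA8, the gene with the largest difference in RNA share there, had 3.56 and 0.661 CPM per kb in S2P ChIP, against 0.762 and 0.942 in N20 ChIP. Its S2P libraries lay on both sides of the N20 libraries, and it was not called (1.02 ± 0.76, adjusted p = 0.32).

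Relative to the body, density after the 3′ end was higher in S2P ChIP in 5 genes, and lower in none, against 22.2% of all genes called, 17.1% higher and 5.04% lower. These were HSP90AA1 (1.68 ± 0.39), HSP90AB1 (1.66 ± 0.27), HSPD1 (1.19 ± 0.34), HSPA4 (1.18 ± 0.26) and HSPB1 (1.07 ± 0.30). HSPA5 had 127% and 53.4% of its body density there in S2P ChIP, against 142% and 142% in N20 ChIP, and was not called (-0.79 ± 0.37, adjusted p = 0.16). From the active starts HSPD1 was not called (0.68 ± 0.33, adjusted p = 0.169). The calls of HSPD1 and HSPB1 also ended without S2P replicate 1. The window after HSP90AB1 holds SLC35B2 and part of NFKBIE in this ratio too. Without N20 replicate 1 there were 2 calls among the 10 genes and without N20 replicate 2 there was 1.

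**Figure D4:**
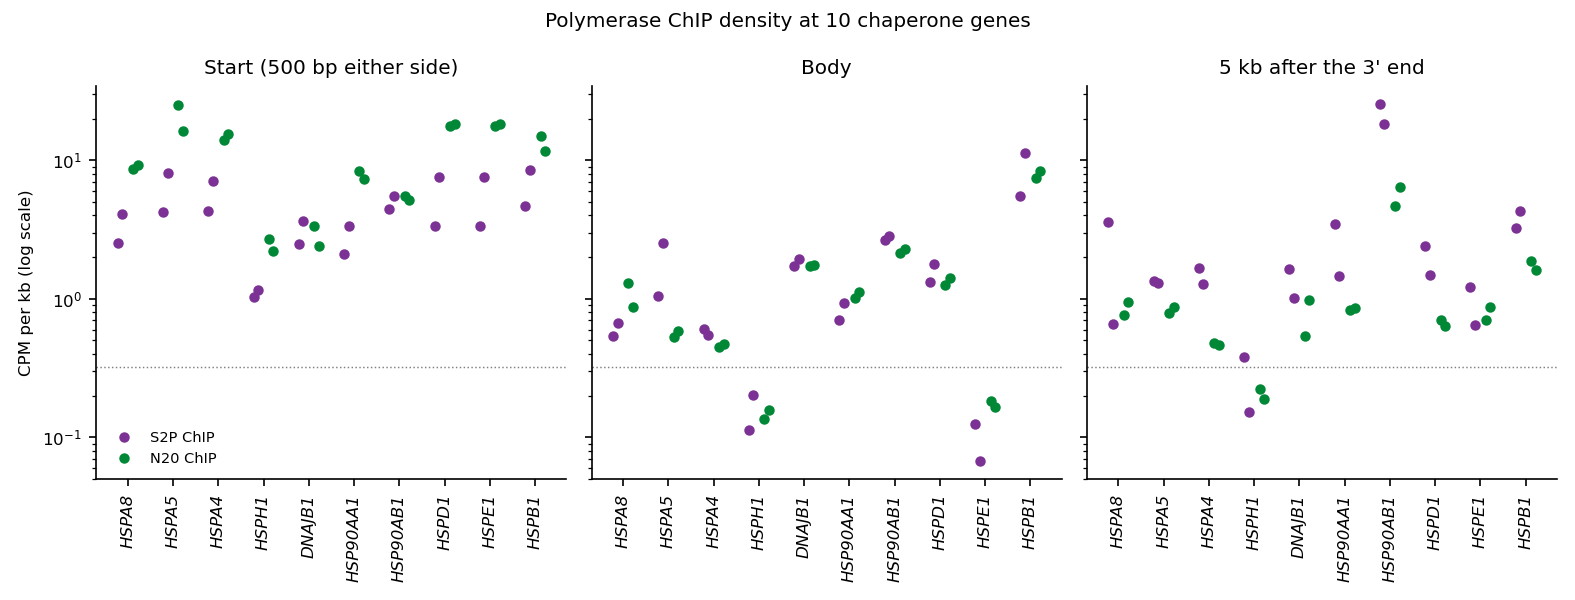
Polymerase ChIP density of the 10 genes (vertical log axis, CPM per kb) in 3 windows, at the annotated start, over the body and in the 5 kb after the 3′ end, with 1 point per library and S2P ChIP left of N20 ChIP. The dotted line is the 0.324 CPM per kb of an even spread. N20 ChIP is higher at most starts, and S2P ChIP is higher after the 3′ end of HSPA4, HSPD1, HSP90AB1, HSP90AA1 and HSPB1.

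Other genes of the folding machinery, in 10 lists chosen with earlier results of these data known, were read in the same fits. Their calls are counts beside the background above and show nothing particular to a list. There 34.9% of all genes were lower and 32.5% higher in TT-Seq relative to Total RNA-Frag-Seq. In 4sU-Seq against Total RNA-Seq 30.1% were lower and 27.3% higher. Of 9 other HSP70 genes tested (of 12 listed) 5 were lower in TT-Seq relative to Total RNA-Frag-Seq and 1 higher. HSPA1B (-1.86 ± 0.18) and HSPA6 (-1.62 ± 0.48), which are stress-inducible, were the lowest, and HSPA4L, of the HSP110 kind like HSPA4, was higher (0.58 ± 0.07). HSPA6 was barely detected, at 0.37 and 0.179 CPM in TT-Seq and 1.06 and 0.595 CPM in Total RNA-Frag-Seq. Reads of HSPA1B cannot be told from those of its near-identical copy HSPA1A. HSPA9, the mitochondrial HSP70, was also lower (-0.20 ± 0.05). Of 10 other HSP90 genes and cochaperones 5 were lower and 2 higher, from CDC37, which brings kinases to HSP90 (-1.17 ± 0.09), and STIP1, which links HSP70 to HSP90 (-0.90 ± 0.06), to PPID (0.33 ± 0.07) and FKBP5 (0.47 ± 0.05), both with peptidyl-prolyl isomerase domains. Without shearing 8 of these 10 were lower and 1 higher.

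Against 32.5% of all genes higher and 34.9% lower, 10 of 20 J domain genes were higher in TT-Seq and 4 lower, with a median of 0.18. DNAJC2, which acts at the ribosome, was highest (1.42 ± 0.06), then DNAJC3 of the endoplasmic reticulum (0.97 ± 0.05), and DNAJC5 of secretory vesicles (-1.15 ± 0.07) and DNAJB2 (-0.66 ± 0.17) were lowest. Among 8 nucleotide exchange factors of HSP70, 3 were higher and 4 lower, from BAG1 (0.96 ± 0.08) and BAG2 (0.51 ± 0.06) to BAG5 (-0.87 ± 0.08) and BAG6 (-1.82 ± 0.10). Of the 7 tested subunits of TRiC, the cytosolic folding chamber, 4 were lower in TT-Seq and none was higher, led by CCT7 (-0.57 ± 0.10), CCT5 (-0.50 ± 0.07), CCT4 (-0.43 ± 0.07) and TCP1 (-0.33 ± 0.09). All 7 were lower in 4sU-Seq than in Total RNA-Seq, with a median of -0.60, where 30.1% of all genes were lower. Prefoldin subunits, which hand actin and tubulin to TRiC, were split, with PFDN5 (-1.15 ± 0.08) and PFDN6 (-0.80 ± 0.12) lower and PFDN1 (0.78 ± 0.06) and PFDN4 (0.69 ± 0.08) higher among 5.

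Of 21 genes of the endoplasmic reticulum and the unfolded protein response, 9 were lower in TT-Seq and 8 higher. The shares over all genes were 34.9% and 32.5%. The abundant folding factors CALR (-1.76 ± 0.08) and P4HB (-1.74 ± 0.09) were lowest. HERPUD1, a factor of protein degradation there (1.07 ± 0.07), and EIF2AK3, the stress-sensing kinase PERK (1.08 ± 0.08), were highest. Among 6 mitochondrial chaperone and protease genes 4 were lower and 1 higher: LONP1 (-0.89 ± 0.07) and TRAP1 (-0.55 ± 0.05) were lowest, DNAJA3 had -0.20 ± 0.07 and CLPX 0.24 ± 0.06. Of the 4 tested genes on the list of heat shock factors, HSF2 was higher (0.70 ± 0.06), and HSF4 (-0.94 ± 0.14) and HSBP1, a negative regulator (-0.63 ± 0.10), were lower. Of 2 tested small heat shock protein genes HSPB3 was lower (-1.66 ± 0.28), at low levels of 0.694 and 0.915 CPM in TT-Seq and 3.02 and 2.01 CPM in Total RNA-Frag-Seq.

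**Figure D5:**
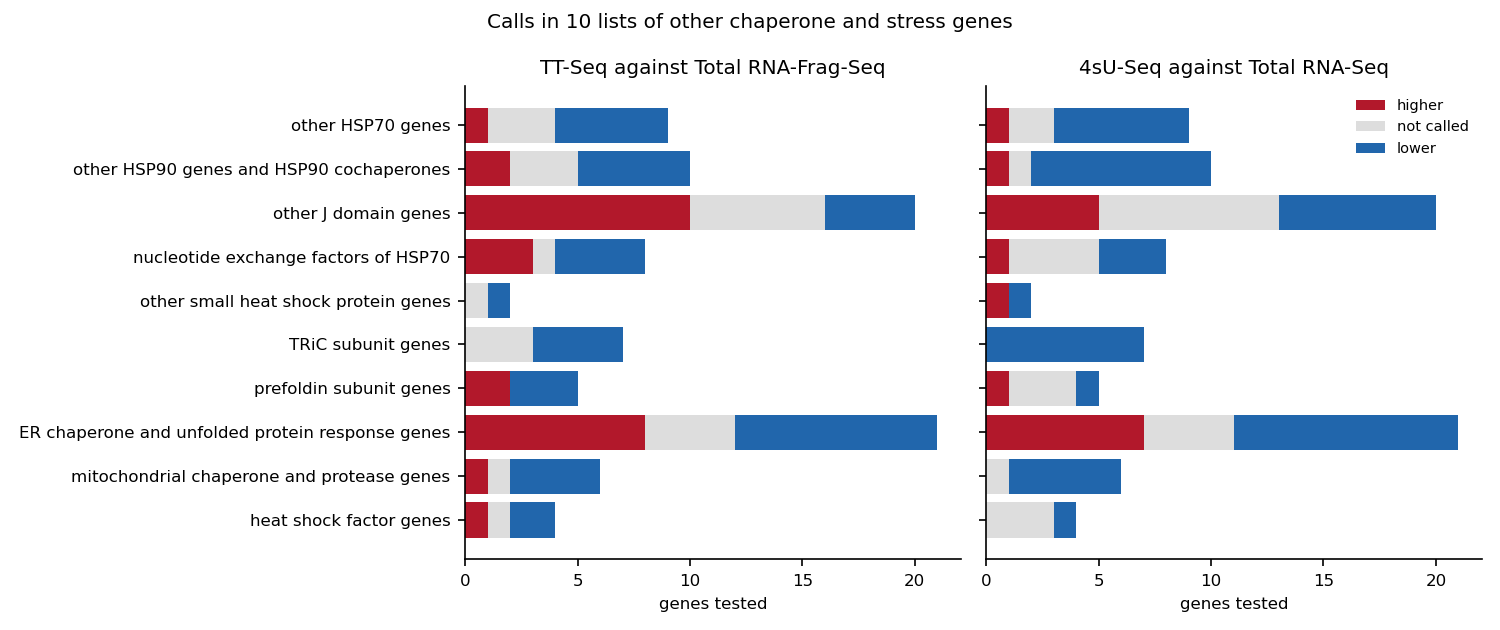
Number of tested genes (horizontal axis) called higher, not called or called lower in each of 10 lists of other chaperone and stress genes, in TT-Seq relative to Total RNA-Frag-Seq (left) and 4sU-Seq against Total RNA-Seq (right). All 7 TRiC subunits are lower on the right and 4 on the left, and 10 of 20 J domain genes are higher on the left. Of all genes 34.9% are lower and 32.5% higher on the left, and 30.1% lower and 27.3% higher on the right.

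In S2P ChIP against N20 ChIP over gene bodies, 27.2% of all genes were called higher and 23.6% lower. Higher and lower calls were 4 and 1 of 10 other HSP70 genes and 5 and 0 of 10 other HSP90 genes and cochaperones. J domain genes had 6 and 1 of 21 and exchange factors 3 and 0 of 8. Small heat shock protein genes had 2 and 0 of 3, TRiC subunits 4 and 0 of 7 and prefoldin subunits 1 and 0 of 5. The endoplasmic reticulum list had 8 and 1 of 21 and the mitochondrial list 5 and 0 of 6. Heat shock factor genes had 2 and 1 of 4. The extremes over the lists were LONP1 (2.59 ± 0.36), DDIT3, the stress-induced factor CHOP (2.00 ± 0.42), PFDN6 (1.83 ± 0.27), HSF4 (1.82 ± 0.22), HSPA1B (1.68 ± 0.46) and TRAP1 (1.67 ± 0.14) on the higher side, and EIF2AK3 (-0.89 ± 0.17), HSPA12A (-0.51 ± 0.13), DNAJC13 (-0.49 ± 0.18) and HSF5 (-0.47 ± 0.15) on the lower. Higher calls were also made for CCT3 (1.38 ± 0.19), DNAJB12 (1.33 ± 0.13), HSPB6 (1.30 ± 0.22), BAG2 (1.11 ± 0.20) and AFG3L2 (0.83 ± 0.13).

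The genes whose pattern over the 8 RNA libraries was most like that of HSPA8, by the Euclidean distance of centred log2 CPM, were IPO4 at 0.194, TOMM22 at 0.263 and BAG6 at 0.369, where the median tested gene stood at 2.65. TOMM22, a receptor of the mitochondrial import pore, had a CPM of 16.8 and 15 in TT-Seq, of 31.1 and 34.2 in 4sU-Seq, of 66.8 and 58.9 in Total RNA-Frag-Seq and of 73 and 72.8 in Total RNA-Seq, the order of HSPA8.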

How the data were processed

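The deposited RNA files hold strand-specific read counts per 200 bp bin and the ChIP files strandless counts per bin, on hg38 (GRCh38). STAR 2.3.0, Bowtie2 2.1.0 and SAMtools are named in the submitters' processing notes. No normalization by the authors is stated; the treatment of reads with several matches was not stated. Bins were summed over RefSeq gene spans, 500 bp on each side of starts, bodies and 5 kb after 3′ ends. CPM of spans use TMM library sizes, and window densities use all binned counts. Counts were tested with edgeR 4.0.16 (quasi-likelihood, TMM) and log2 density ratios with limma 3.58.1 after adding 0.1 CPM per kb, in R 4.3.3, with Benjamini-Hochberg adjustment over all features and a threshold of 0.05. DESeq2 1.42.0 was an alternative. In simulated data at log2 changes of 0.5 and 1, 90% and 99% of changed genes were recovered for TT-Seq over Total RNA-Frag-Seq, 69% and 99% for ChIP bodies, and 14% and 87% for ChIP density ratios. The simulation changed 200 genes and gave RNA and ChIP the same fixed spread between libraries. That spread was not matched to the real ChIP libraries, so the ChIP rates do not describe recovery in them. Named list genes are the 2 highest and 2 lowest of those called in each list in TT-Seq over Total RNA-Frag-Seq, and the highest and lowest called in ChIP bodies. The members and lists were chosen with earlier results of these data known.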

Additional observations from a re-analysis of the deposited data

Results flagged for a closer look

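The effect of purification on 6 of the 10 genes differed between sheared and unsheared RNA by the interaction test (edgeR, adjusted p under 0.05). HSPB1 had -1.44 on the log2 scale, HSP90AB1 -0.76, HSPA8 -0.68 and HSP90AA1 -0.35, so TT-Seq over Total RNA-Frag-Seq was lower than 4sU-Seq over Total RNA-Seq. HSPA4 had 1.03 and HSPH1 0.34, in the other direction. The calls of HSP90AA1 and HSPH1 were close to the threshold and ended when single libraries were left out. That of HSP90AA1 also ended with no filter on low counts (adjusted p = 0.0577), and that of HSPH1 without TMM scaling (adjusted p = 0.0546). Of all tested genes 45.9% were called in this test.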

How the results depend on the processing

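Over 1408 pairs of a gene's test and another setting, 1255 kept their direction and side of the threshold, 107 lost the call, 37 gained it and 9 changed sign with a call under one of the settings. Members called for Total RNA-Frag-Seq over Total RNA-Seq numbered 3, but 6 without TMM scaling, 5 with a replicate block and 1 to 5 with 1 library left out. At ChIP starts there were 5, but 3 by DESeq2, 2 with a window of 1 kb into the gene, 2 at the active starts and 0 to 4 with 1 library left out. In ChIP bodies there were 3, but 1 by DESeq2 and 0 to 5 with 1 library left out. After the 3′ end 5 became 3 to 7, the start-to-body ratio's 4 became 1 with the 1 kb window and 0 to 5, and the after-to-body ratio's 5 became 1 to 7, with 1 library left out. Counted over the authors' transcriptional units, the sign changed for HSP90AA1 (0.19 for TT-Seq over Total RNA-Frag-Seq, 0.0402 in 4sU-Seq against Total RNA-Seq, 0.15 in the interaction), HSPE1 (0.0869 for TT-Seq over Total RNA-Frag-Seq, 0.45 in TT-Seq against 4sU-Seq, 0.44 in the interaction) and HSPA5 (-0.19 in TT-Seq against 4sU-Seq). Over these units no member was higher for TT-Seq over Total RNA-Frag-Seq, where HSPA4 lost its call, and 7 were lower, HSPH1 among them but not HSP90AA1 or HSPE1. The unit matched to HSP90AA1 lies outside the active gene and that of HSPE1 covers several genes. The units were fitted with TMM scaling of their own, and its part in these changes was not tested. HSPB1 in ChIP bodies ranged over -0.57 to 0.56 with 1 library left out, the lowest without S2P replicate 2, and HSPA4 after the 3′ end in TT-Seq against 4sU-Seq was -0.29 with 0.5 CPM per kb added; the cause was not tested. Of all calls, the share that was higher moved without TMM scaling to 33.7% (main 50.9%) in TT-Seq against 4sU-Seq, 28.6% (63.6%) for Total RNA-Frag-Seq over Total RNA-Seq, 17.5% (54.6%) at ChIP starts and 76.1% (56.3%) after the 3′ end. Differences between replicates 1 and 2 correlated between groups at -0.0622 to 0.194 in RNA and at -0.077 in ChIP. The labels tie no replicate number to a shared culture. Whether the numbers pair the samples is thus not settled, and the main fits do not use them. With the block HSPE1 gained a call in 4sU-Seq over Total RNA-Seq (-0.30, 9 members lower), in Total RNA-Frag-Seq over Total RNA-Seq (-0.23) and in the interaction (-0.42), while HSPA4 in ChIP bodies and HSPE1 in the start-to-body ratio lost theirs. Other calls close to the threshold also ended under single settings: by DESeq2 those of HSPA8 and HSPA4 in ChIP bodies and of HSP90AA1 and DNAJB1 at ChIP starts, with no filter those of HSPE1 in TT-Seq over either other group, and with the 2 kb window that of HSPB1 in ChIP after the 3′ end.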
